A study of Sus scrofa with 10 samples.

Results

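The genes described here encode subunits of RNA polymerases I, II and III, the general transcription factors, the Mediator complex and a few elongation factors and coactivators. They were taken by gene symbol from the annotation of an Affymetrix porcine array, namely every symbol beginning with POLR1, POLR2, POLR3, GTF2, GTF3, TAF and a digit, MED and a digit, TCEA and a digit, or SUPT. This gave 63 genes, read by 95 probe sets, of 6765 genes in all. Where a gene had several probe sets, the brightest on average across the 10 arrays stood for it, and no measured difference entered this choice of probe set. The genes themselves were chosen with earlier results of these data known, that of POLR1E among them.

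The cells were fibroblasts grown from Danish Landrace/Yorkshire x Duroc fetuses at day 24, from tissue without the head. An antibody against SSEA-1, a carbohydrate on the surface of several embryonic and stem cell types, was used to divide them on magnetic beads into an SSEA1+ and an SSEA1- fraction, and no other treatment was applied to either. RNA from 5 fractions of each kind, with replicate numbers 1 to 5 in both, was measured with 1 array per fraction. Values are log2 signals, so a difference of 1 is a doubling, and differences are given throughout as SSEA1+ minus SSEA1-.

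Nuclear genes are transcribed by 3 polymerases. RNA polymerase I makes the large ribosomal RNA precursor, RNA polymerase II makes messenger RNAs, and RNA polymerase III makes transfer RNAs and 5S ribosomal RNA. Each is brought to its promoters by its own factors: SL1 for polymerase I, TFIIA to TFIIH with TFIID for polymerase II, and TFIIIA and TFIIIC, with TFIIIB, for polymerase III. Mediator links DNA-bound activators to polymerase II through its head, middle and tail modules. These genes are expressed in nearly every dividing cell, and some of their protein products are shared between complexes.

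Of the 63 genes, 61 lay above background on all 10 arrays, background being 0.35, the 95th percentile of 23 controls without a target in these samples. MED1, a Mediator subunit bound by nuclear receptors, exceeded it on 1 array, and SUPT16H, a subunit of the histone chaperone FACT, on none, so their differences, which the counts below include, are of signals at background. Of 13 listed fibroblast markers 11 were read, VIM, FN1 and PDGFRB among them, and all 11 exceeded background on all arrays. Their differences were above 0 for 5 and below for 6, with a median of -0.09. COL1A2 rose by 1.19 (limma, adjusted p = 0.000434), and with the block THY1 (0.34) and FAP (-0.50) passed too. Of 6 endothelial markers PECAM1 and VWF exceeded it on all 10 arrays, KDR on 2, TIE1 on 1, and CDH5 and TEK on none. Of 5 blood cell markers CD34 and HBB exceeded it on all 10, CD14 on 9, and PTPRC and SPI1 on none. Of 3 muscle markers DES exceeded it on all 10, MYF5 on 8 and MYOD1 on 6. None of these 14 passed, with or without the block. Both neural markers that were read, SOX10 and MAP2, exceeded background on all 10 arrays and did not pass either.

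Of 6 epithelial markers KRT8, KRT18, KRT19 and CLDN4 exceeded background on all 10 arrays, CDH1 on 8 and EPCAM on 5. None passed in limma. KRT19, CLDN4, CDH1 and EPCAM read 0.40, 0.24, 0.18 and 0.25 with unadjusted p under 0.05 (66.7%, against 23.8% of all genes). KRT8 and KRT18 read -0.05 and -0.09. KRT19 passed with the block (limma, adjusted p = 0.0272), 16.7% of the list against 14.3% of all genes. With the spike-in level described below KRT19 read 0.57 ± 0.30 (SE), and -0.10 ± 0.28 (SE) with the block beside it. The mean of the list ran from 1.47 to 1.97 in SSEA1+ and from 1.29 to 1.99 in SSEA1- arrays, and its part in the differences below was not tested.

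The group as a whole had a median difference near 0 between the 2 fractions, and a few single subunits differed. POLR1E rose 1.89-fold and POLR2E 1.43-fold in the SSEA1+ fraction, TAF10 rose 1.18-fold, and MED10 and POLR2J were lower, with 1.61 and 1.25 times as much signal in the SSEA1- fraction. These 5 of 63 genes, 3 higher and 2 lower, had an adjusted p under 0.05 in limma over all probe sets. That is 7.94% of the group, against 7.39% of all genes, 3.21% higher and 4.18% lower, so the share of the group that changed was close to that of all genes. The median difference was -0.06 over the 63 genes and -0.01 over all 6765. The group divided into 30 genes above 0 and 33 below, with no common direction.

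The fit above leaves out the pairing of the fractions by replicate number. With that number as a block, 10 of the 63 genes passed, 5 higher and 5 lower, or 15.9% against 14.3% of all genes (5.65% higher and 8.62% lower). POLR1E, POLR2E, POLR2J and MED10 passed again, TAF10 did not, and 6 others passed that had not done so without the block: TAF1D, SUPT3H, TAF15, MED11, MED6 and MED16. The ranges of the 2 fractions did not overlap for 8 genes, 12.7% against 8.51% of all genes. Without a block, the number lower was 5 without SSEA1+ replicate 4 or SSEA1- replicate 2. It was 1 without SSEA1+ replicate 1 or 5, without SSEA1- replicate 1, 3, 4 or 5, or without the pair numbered 3 or 5, and 0 without the pair numbered 1. In SSEA1+ or SSEA1- samples sorted in bulk, fewer cells expressing a gene and less RNA per cell cannot be told apart.

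**Figure D1:**
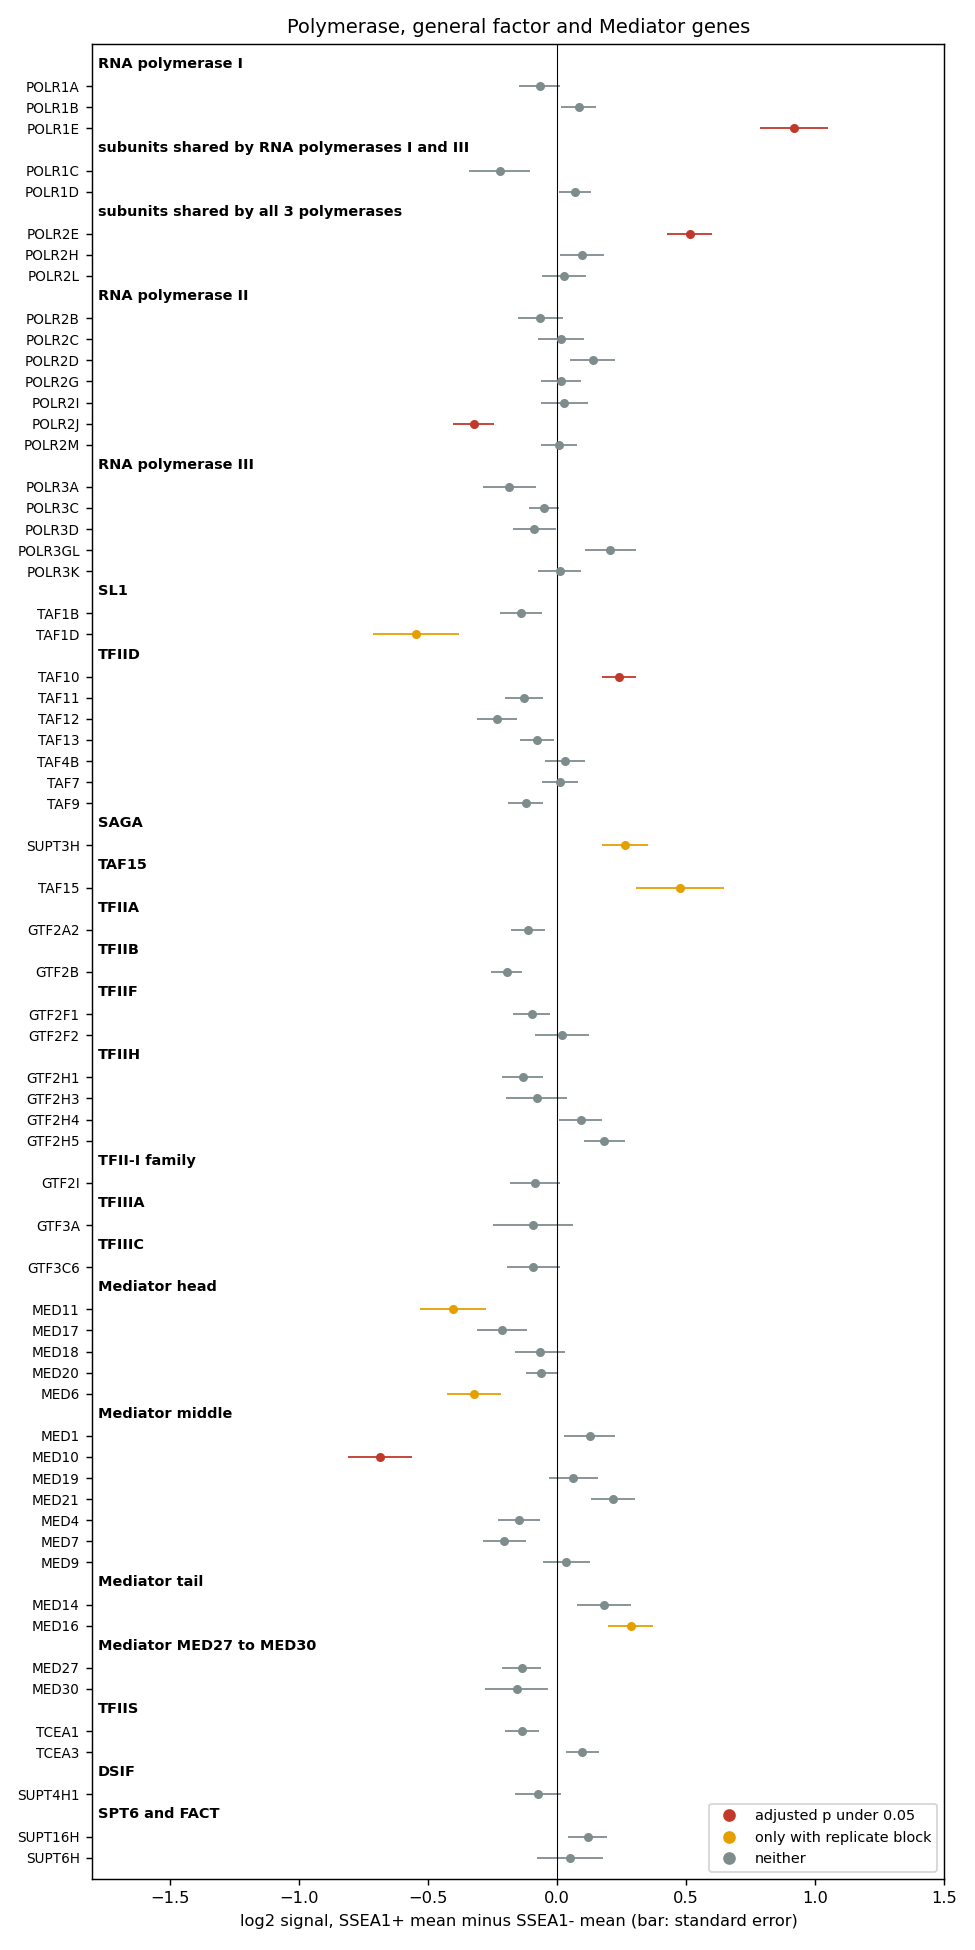
Difference in log2 signal (SSEA1+ mean minus SSEA1- mean, n = 5 each; bars, standard error) for each of the 63 genes, arranged by complex, with colour for an adjusted p under 0.05 without the replicate block, with it only, or neither. Most points lie close to 0; POLR1E at 0.92 and MED10 at -0.69 stand at the extremes.

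Poly-A spike-ins, bacterial RNAs added in the laboratory, also differed in level between the fractions, and their part in the differences below was not tested beyond the fits given here. Relative to the hybridisation controls the level ranged from -3.45 to -2.66 in the SSEA1+ arrays and from -4.32 to -3.80 in the SSEA1- arrays, a difference of 0.82 (exact two-sided permutation test, p = 0.00794, the smallest that 5 against 5 arrays can give). The ranges did not meet, so a fit with this level cannot fully tell it apart from the fraction, and it loses precision. For POLR1E the standard error was 0.13 without the level, 0.24 with it and 0.38 with the block as well. In a limma fit with this level as a covariate 0 of the 63 genes passed, against 6 of 6765 (0.0887%), and with the block as well 0, against 1 of 6765 (0.0148%). At an unadjusted p under 0.05 there were 8 of the 63 with the covariate, against 14.6% of all genes. Genes of the G2 and M phases had lower means in SSEA1+, 13 of 13 measured, with a median of -0.64. Of these CENPF passed (7.69%, against 7.39% of all genes), and 11 passed with the block (84.6%, against 14.3% of all genes). The mean of that list ran from 2.83 to 4.00 in SSEA1+ and from 3.28 to 4.92 in SSEA1- arrays, and its part in the differences below was not tested.

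Under the symbols taken here, RNA polymerase I was read by 3 genes of its own and POLR1E changed. A further subunit, POLR1F, is on the array under its older symbol TWISTNB. It read -0.37 (limma, adjusted p = 0.0136) and is described with the partners below. POLR1E encodes the counterpart of yeast A49, which forms with POLR1G a dimer on the enzyme that acts in initiation and elongation. Its signal was 4.09, 3.85, 4.03, 4.24 and 4.13 in SSEA1+ replicates 1 to 5, and 3.33, 3.33, 2.66, 3.03 and 3.42 in SSEA1- replicates 1 to 5. The fractions did not overlap, and every replicate pair had the higher value in SSEA1+, by 0.53 in replicate 2 to 1.37 in replicate 3. The means were 4.07 ± 0.14 and 3.15 ± 0.31 (SD, n = 5 each), a difference of 0.92 ± 0.13 (SE; limma, adjusted p = 0.00190). It was 1.17 ± 0.24 (SE; adjusted p = 0.0939) with the poly-A covariate.

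The catalytic subunits of the same enzyme did not pass. POLR1A, the largest subunit, differed by -0.07 at a low signal of 0.78 and 0.85, and POLR1B, the second largest, by 0.08. POLR1C and POLR1D, a pair of assembly subunits that polymerases I and III share, read -0.22 and 0.07. POLR1C was lower in 5 of 5 pairs without passing in limma (adjusted p = 0.320, or 0.0727 with the block). The second POLR1D probe set read 0.23 (adjusted p = 0.0647).

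SL1, the factor that carries polymerase I to the ribosomal RNA promoter, was read through 2 of its TAF subunits, both with lower means in SSEA1+. TAF1D read 3.72, 3.67, 3.57, 4.38 and 4.13 in SSEA1+ replicates 1 to 5 and 4.52, 4.14, 4.28, 4.39 and 4.89 in SSEA1- replicates 1 to 5. All pairs were lower in SSEA1+, but that of replicate 4 by less than 0.01, and SSEA1+ replicate 4 lay within the SSEA1- range. The difference was -0.55 ± 0.17 (SE; limma, adjusted p = 0.0698, and 0.0108 with the block). It passed without SSEA1+ replicate 4 (-0.67) and without SSEA1- replicate 2 (-0.62), and read -0.07 ± 0.28 (SE) once the poly-A level entered the fit and 0.03 ± 0.31 (SE) once the block did too. TAF1B differed by -0.14 on its brightest probe set and by -0.34 on another, which passed only with the block (adjusted p = 0.205 and 0.0399). Its remaining probe sets read -0.07 (limma, adjusted p = 0.809) and, below background on all arrays, 0.04.

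Of the subunits that all 3 polymerases contain, 3 were measured and POLR2E changed. POLR2E is the homologue of yeast Rpb5, which lies in the jaw that contacts downstream DNA. Its SSEA1+ values were 6.17, 5.90, 6.14, 6.17 and 6.16 in replicates 1 to 5, and its SSEA1- values were 5.34, 5.71, 5.73, 5.57 and 5.63. The fractions did not overlap, and SSEA1+ replicate 2 stood apart below the other 4. The difference was 0.51 ± 0.09 (SE; limma, adjusted p = 0.00525), with pair differences of 0.20 to 0.83. It read 0.57 ± 0.17 (SE; adjusted p = 0.207) once the poly-A level entered the fit and 0.83 ± 0.27 (SE) once the block did too. POLR2H and POLR2L, small subunits of all 3 enzymes, differed by 0.10 and 0.03 and did not pass (limma, adjusted p = 0.595 and 0.913).

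RNA polymerase II was read by 7 genes beside the shared ones, and POLR2J fell. POLR2J is the counterpart of Rpb11, which pairs with POLR2C early in assembly of the enzyme. Its signal in SSEA1+ replicates 1 to 5 was 4.56, 4.60, 4.68, 4.44 and 4.40, and in SSEA1- replicates 1 to 5 it was 4.81, 4.72, 4.83, 5.01 and 4.93. The highest SSEA1+ value lay just below the lowest SSEA1- value. The difference was -0.32 ± 0.08 (SE; limma, adjusted p = 0.0291), and -0.51 ± 0.14 (SE; adjusted p = 0.177) with the poly-A covariate. The call ended without SSEA1+ replicate 1 or 5 and without SSEA1- replicate 1, 3, 4 or 5, with adjusted p-values over all single-array leave-outs of 0.0209 to 0.0766.

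The assembly partner POLR2C differed by 0.01, with 4.61 ± 0.16 against 4.60 ± 0.12 (SD, n = 5 each). The other polymerase II genes lay between -0.07 and 0.14. They were POLR2B, the second largest subunit, at -0.07, POLR2D at 0.14 and POLR2G at 0.02, which form the stalk, POLR2I, a subunit that aids transcript cleavage, at 0.03, and POLR2M, a polymerase II-associated regulator, at 0.01. The other 3 POLR2B probe sets read 0.08, -0.14 and -0.05, and none of these genes passed.

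No gene of RNA polymerase III passed, with or without the block. The largest subunit POLR3A read -0.19, with 4 of 5 pairs lower. POLR3C read -0.05 and POLR3D -0.09. POLR3GL, the isoform of the POLR3G subunit that is found in most differentiated cells, read 0.21 (limma, adjusted p = 0.266), and POLR3K, which acts in termination, read 0.01. A second POLR3K probe set read -0.19 with 5 of 5 pairs lower (limma, adjusted p = 0.151). Of the factors that serve this enzyme, GTF3A, which binds the 5S ribosomal RNA gene, read -0.09, and GTF3C6, a subunit of TFIIIC, also read -0.09.

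The difference of GTF3A depended on 1 array. It read 1.89, 1.83, 1.73, 2.71 and 1.77 in SSEA1+ replicates 1 to 5, against 2.02 to 2.17 in the SSEA1- fraction. SSEA1+ replicate 4 was thus above all other arrays, and the other 4 SSEA1+ arrays below all SSEA1- arrays. Without SSEA1+ replicate 4 the gene passed at -0.27 (limma, adjusted p = 0.0315). Its second, equally dim probe set read -0.13 (adjusted p = 0.457).

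**Figure D2:**
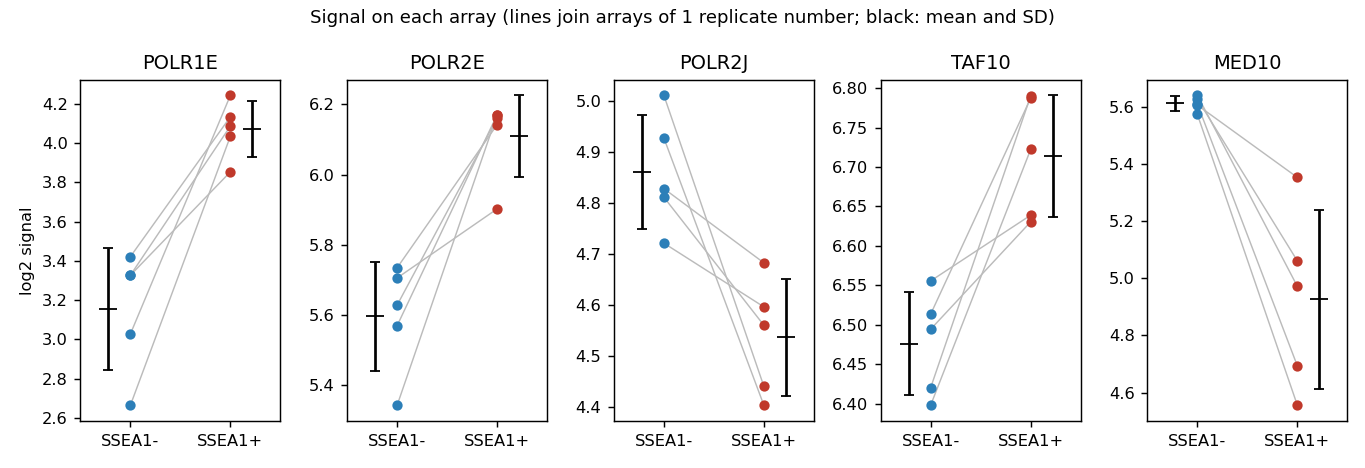
Log2 signal on each array for the 5 genes with an adjusted p under 0.05; points are arrays, grey lines join arrays with the same replicate number, and black bars give mean and SD (n = 5), on a separate vertical scale for each gene. The fractions do not overlap for any of the 5, and the narrow SSEA1- spread of MED10 (SD 0.03) contrasts with its SSEA1+ spread (SD 0.31).

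TFIID, which recognises core promoters and is the first general factor to bind there, was read by 7 TAF genes, and TAF10 rose by a small amount. TAF10 is a histone-fold subunit that TFIID shares with the coactivator SAGA. It read 6.79, 6.63, 6.72, 6.64 and 6.79 in SSEA1+ replicates 1 to 5, and 6.51, 6.49, 6.40, 6.56 and 6.42 in SSEA1- replicates 1 to 5. The fractions did not overlap, although the gap between them was under 0.1. The difference of 0.24 ± 0.07 (SE) was at the threshold (limma, adjusted p = 0.0499). The call ended with the block (0.0556), without control probe sets in the fit (0.0517), and without any single array but SSEA1+ replicate 4, where adjusted p-values were 0.0442 to 0.126. The covariate gave 0.18 ± 0.13 (SE), and 0.03 ± 0.22 (SE) with the block beside it.

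TAF12, a histone-fold subunit also shared with SAGA, had a lower mean in SSEA1+ and did not pass. It read 3.34, 3.21, 3.37, 3.24 and 3.34 in SSEA1+ replicates 1 to 5 and 3.43, 3.39, 3.55, 3.56 and 3.75 in SSEA1- replicates 1 to 5. The fractions did not overlap, and the difference was -0.23 ± 0.08 (SE; limma, adjusted p = 0.102, and 0.0615 with the block). The histone-fold pair TAF11 and TAF13 read -0.13 and -0.08, and TAF9, shared with SAGA as well, read -0.12 with 5 of 5 pairs lower. A second TAF9 probe set had the opposite sign, 0.10 with 4 of 5 pairs higher (limma, adjusted p = 0.647). TAF7 read 0.01 and the tissue-restricted TAF4B 0.03 at a low signal.

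SUPT3H, a SAGA subunit with a pair of histone folds, passed with the block alone. It read 4.18, 3.98, 4.26, 4.01 and 4.30 in SSEA1+ replicates 1 to 5 and 3.84, 3.85, 3.81, 3.78 and 4.13 in SSEA1- replicates 1 to 5. Only SSEA1- replicate 5 reached into the SSEA1+ range. The difference was 0.26 ± 0.09 (SE; limma, adjusted p = 0.109, and 0.0402 with the block), with 0.20 on a further probe set (adjusted p = 0.123) and -0.01 on one near background. With the poly-A level and the block it read 0.10 ± 0.23 (SE).

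TAF15 is an RNA-binding protein that associates with TFIID. It read 5.58, 5.36, 5.61, 6.15 and 5.95 in SSEA1+ replicates 1 to 5 and 5.42, 4.84, 5.24, 5.04 and 5.73 in SSEA1- replicates 1 to 5. The fractions overlapped, yet all 5 pairs were higher in SSEA1+, by 0.16 to 1.11. The difference was 0.47 ± 0.17 (SE; limma, adjusted p = 0.130, and 0.0315 with the block), and 0.74 ± 0.32 (SE) with the poly-A covariate.

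None of the genes for TFIIA, TFIIB, TFIIF and TFIIH passed. GTF2B, which bridges TFIID and the polymerase, had the smallest p on the brightest probe sets. Its signal was 5.06, 4.95, 5.06, 4.94 and 5.08 in SSEA1+ replicates 1 to 5, and 5.19, 5.22, 5.21, 5.24 and 5.20 in SSEA1- replicates 1 to 5. The fractions did not overlap and the SSEA1- values were tightly grouped (SD 0.02), with a difference of -0.20 ± 0.06 (SE; limma, adjusted p = 0.0763, and 0.0882 with the block). GTF2A2, the small subunit of TFIIA, read -0.11, and GTF2F1 and GTF2F2, the subunits of TFIIF, read -0.10 and 0.02. A second GTF2F2 probe set read -0.32 with 5 of 5 pairs lower, against 2 of 5 on the first (limma, adjusted p = 0.0644, and 0.0119 with the block).

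Among the 4 measured subunits of TFIIH, the factor that opens promoter DNA, signs were divided. GTF2H5, which stabilises the complex, read 0.18 with 5 of 5 pairs higher (limma, adjusted p = 0.223), and GTF2H4 read 0.09. GTF2H1 read -0.13 and GTF2H3 -0.08. GTF2I, a signal-responsive initiation factor, read -0.09, and the brightest of its 3 other probe sets 0.20 at a low signal.

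Mediator was read by 16 genes, and MED10 fell. MED10 belongs to the middle module and is conserved from yeast. Its signal in SSEA1+ replicates 1 to 5 was 4.69, 5.06, 4.55, 5.35 and 4.97, and in SSEA1- replicates 1 to 5 it was 5.61, 5.63, 5.57, 5.61 and 5.64. All SSEA1+ arrays were lower, and they varied far more among themselves than the SSEA1- arrays did. The means were 4.93 ± 0.31 and 5.61 ± 0.03 (SD, n = 5 each), a difference of -0.69 ± 0.12 (SE; limma, adjusted p = 0.00673). The call held without any single array and ended without the pair numbered 1 (-0.63, adjusted p = 0.0507). With the poly-A covariate the difference was -0.26 ± 0.19 (SE), and with the block beside the covariate -0.07 ± 0.27 (SE).

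The rest of the middle module divided. MED4, MED7 and MED10 were lower in 5 of 5 pairs, MED4 by a mean of 0.15 and MED7 by 0.20, while MED21, the partner of MED7 in a long hinge, read 0.22 with 4 of 5 pairs higher. MED19, which contacts polymerase II, read 0.06, and MED9 0.04. Except for MED10 none of them passed, with or without the block (limma, adjusted p for MED21 = 0.175 and for MED7 = 0.193).

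The head module, which contacts polymerase II, had lower means in SSEA1+ for 5 of 5 measured genes, with a median of -0.21, or -0.27 to -0.17 when arrays or pairs were left out. Without the block none of the 5 passed, against 7.39% of all genes. With it MED11 and MED6 did, 40% of the 5, against 14.3% of all genes. Among all 6765 genes 3547 had a difference below 0, and no test of the module as a whole was run. MED11 read 2.96, 2.87, 2.98, 3.37 and 3.19 in SSEA1+ replicates 1 to 5 and 3.41, 3.16, 3.32, 3.81 and 3.66 in SSEA1- replicates 1 to 5. The fractions overlapped while the pairs were alike, each lower in SSEA1+ by 0.30 to 0.47. The difference was -0.40 ± 0.13 (SE; limma, adjusted p = 0.0842, and 0.00385 with the block). It passed without SSEA1+ replicate 4 (adjusted p = 0.0387) and without SSEA1- replicate 2 (0.0340).

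MED6 read 4.64, 4.48, 4.56, 4.65 and 4.69 in SSEA1+ replicates 1 to 5, and 4.73, 4.65, 5.06, 5.23 and 4.97 in SSEA1- replicates 1 to 5. Its pairs differed by -0.09 in replicate 1 to -0.57 in replicate 4. The difference was -0.32 ± 0.10 (SE; limma, adjusted p = 0.0879, 0.0346 with the block, and 0.0297 without SSEA1- replicate 2). MED17, the central scaffold of the head, read -0.21 with 5 of 5 pairs lower (adjusted p = 0.233), MED18 read -0.07 and MED20 -0.06. Over the 5 genes, 22 of 25 pair values were below 0, but all come from the same 5 pairs of arrays and are not independent. With the poly-A covariate 5 of 5 genes stayed below 0, and 3 of 5 with the block beside it.

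**Figure D3:**
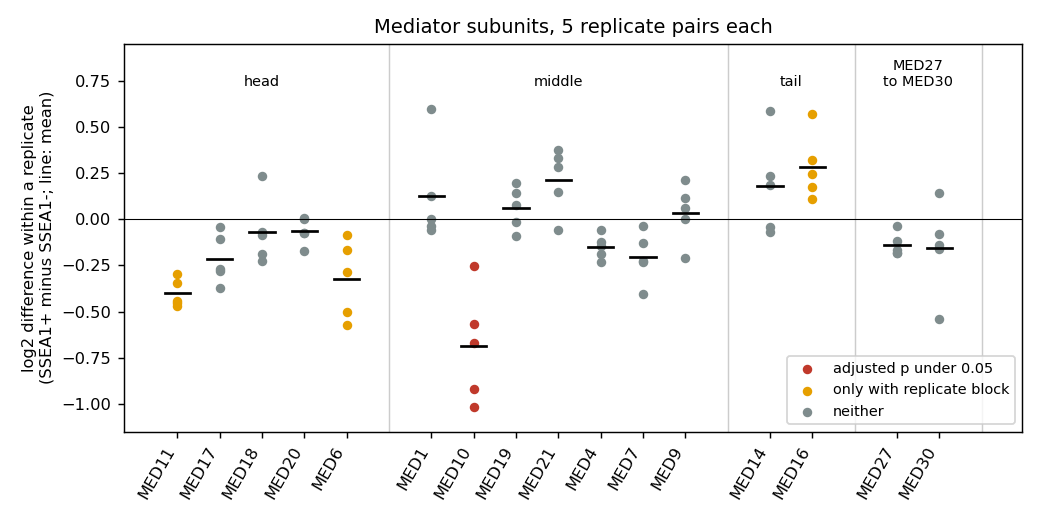
Difference in log2 signal within each replicate pair (SSEA1+ minus SSEA1-) for the 16 Mediator genes by module; points are the 5 pairs and lines their mean. The 5 points of MED11 lie between -0.47 and -0.30, those of MED10 between -1.02 and -0.25, and those of MED16 between 0.11 and 0.57.

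The tail module and the backbone that joins it had higher means in SSEA1+, and neither gene passed without the block. MED14, the backbone of the whole complex, read 0.18 with 3 of 5 pairs higher (limma, adjusted p = 0.387). MED16, a tail subunit, read 1.30, 1.20, 1.55, 1.21 and 1.32 in SSEA1+ replicates 1 to 5 and 1.12, 0.88, 0.98, 0.96 and 1.20 in SSEA1- replicates 1 to 5. All 5 pairs were higher in SSEA1+ and the fractions met at their edges, with a difference of 0.28 ± 0.09 (SE; limma, adjusted p = 0.0727, and 0.0425 with the block). MED16 read 0.11 ± 0.16 (SE) once the poly-A level entered the fit and -0.04 ± 0.24 (SE), of the opposite sign, once the block did too. MED27 and MED30, subunits placed between head and tail, read -0.14 and -0.16 and did not pass. Over all 16 genes the median was -0.10, with 10 genes below 0, against 3547 of all 6765 genes. Of 80 pair values 54 were below 0, but all come from the same 5 pairs of arrays and are not independent.

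None of the 5 elongation genes passed on its brightest probe set. TCEA1, the widely expressed form of TFIIS, which lets a stalled polymerase II cleave its transcript, read 6.16, 6.05, 6.08, 6.20 and 6.19 in SSEA1+ replicates 1 to 5 and 6.28, 6.20, 6.21, 6.37 and 6.32 in SSEA1- replicates 1 to 5. The difference was -0.14 ± 0.07 (SE; limma, adjusted p = 0.264). Another TCEA1 probe set fell, by 0.43 ± 0.09 (SE; limma, adjusted p = 0.0183, and 0.00489 with the block), and a remaining one read -0.20 (adjusted p = 0.219). On the one that fell the SSEA1+ arrays read 4.41 to 4.76 and the SSEA1- arrays 4.85 to 5.33, without overlap. The 3 probe sets thus gave the same sign and different sizes.

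TCEA3, a more tissue-restricted form, read 0.10, and the next brightest of its 4 probe sets read 0.42 (limma, adjusted p = 0.0891, and 0.0216 with the block). SUPT4H1, a subunit of the pausing and elongation factor DSIF, read -0.07, and SUPT6H, a histone chaperone that travels with polymerase II, read 0.05 with a wider SSEA1- spread (SD 0.32) than SSEA1+ spread (SD 0.08).

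For 19 of the 63 genes the array held further probe sets, 32 in all. The TCEA1 one was the single one that passed, against 5.99% of all probe sets that are not controls. With the block 6 passed, against 11.5%: those of TCEA1, GTF2F2, TCEA3, TAF1B, TAF11 and MED27. The TAF11 probe set read 0.34, opposite in sign to the brightest one for that gene, and the MED27 one read -0.25 near background. In 14 of the 32 the sign was opposite to that of the brightest probe set, and 5 were at or below background on all arrays.

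**Figure D4:**
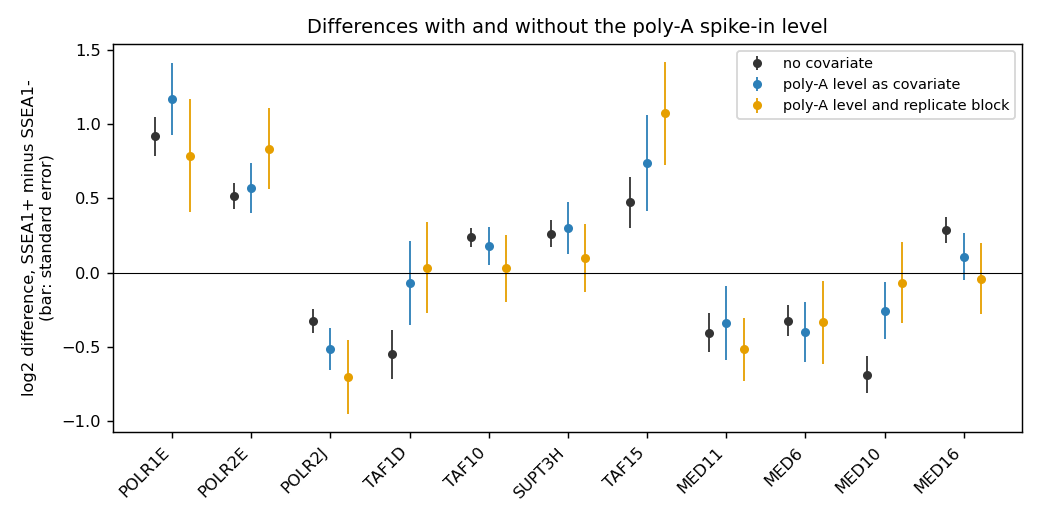
Log2 difference (SSEA1+ minus SSEA1-; bars, standard error) for the 11 genes that passed with or without the replicate block, fitted without a covariate, with the poly-A spike-in level, and with that level and the replicate block. POLR1E, POLR2E, POLR2J and TAF15 read 0.79, 0.83, -0.70 and 1.07 with both terms. MED10 moved from -0.69 to -0.07, and TAF1D from -0.55 to 0.03. The fits with the level cannot fully tell it apart from the fraction.

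Other genes of the transcription machinery that the symbols above do not take were read from a list of partners, chosen with earlier results of these data known, of which 37 were measured. In limma, 7 of them passed, 2 higher and 5 lower (18.9%, against 7.39% of all genes), and 13 with the block, 4 higher and 9 lower (35.1%, against 14.3% of all genes). Because the list was chosen with those results known, these shares cannot be read as an excess over all genes. Their median difference was -0.06. The number lower was 2 without SSEA1+ replicate 1, 2, 3 or 5 and without SSEA1- replicate 3 or 5, 3 without SSEA1- replicate 1 or 4, and 2 with repeated quantile normalization or cyclic loess. The number higher was 1 without SSEA1+ replicate 1 or 2 or SSEA1- replicate 5. Without the pairs numbered 1, 3 and 5 in turn, the numbers were 0, 1 and 0 higher and 2, 1 and 1 lower. In the limma fit with the poly-A level 0 of the 37 passed, and 9 were under 0.05 before adjustment, against 14.6% of all genes.

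In the polymerase I partners TWISTNB, an older symbol for the subunit POLR1F, fell, in contrast to POLR1E. TWISTNB read 4.41 to 4.74 in the SSEA1+ arrays, with a median of 4.61, and 4.87 to 5.10 in the SSEA1- arrays. Its fractions did not overlap, and the difference was -0.37 ± 0.08 (SE; limma, adjusted p = 0.0136), a call that ended without the pair numbered 3 or 5 and for the mean over its probe sets (-0.21). It read -0.56 with the poly-A covariate. TTF1, which terminates polymerase I transcription, fell by 0.43 at a low signal (adjusted p = 0.0438), a call that ended in 8 of 10 single-array leave-outs, those of SSEA1+ replicate 4 and SSEA1- replicate 1 being the exceptions. The call ended too with quantile normalization, with loess and for the mean over its probe sets (-0.18, adjusted p = 0.200 in limma). TTF1 read -0.22 once the poly-A level entered the fit and -0.09 once the block did too. BRF2, SNAPC5 and the polymerase III repressor MAF1 read -0.01, -0.02 and 0.08.

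Around pausing and elongation, subunits of one complex again differed from each other. NELFB and NELFCD are subunits of NELF, which holds polymerase II near the start site. NELFB rose by 0.32 ± 0.07 (SE; limma, adjusted p = 0.0141), while NELFCD fell by 0.51 ± 0.14 (SE; adjusted p = 0.0472), and NELFE read -0.18. The NELFB call ended without the pair numbered 1 or 5. LARP7, which stabilises the 7SK RNA that restrains P-TEFb, fell by 0.75 (adjusted p = 0.0479), and the P-TEFb kinase CDK9 read -0.07. The calls of NELFCD and LARP7 each held without SSEA1+ replicate 4 or SSEA1- replicate 2 and ended without any of the 8 other arrays. Both calls ended with quantile normalization and loess, and that of LARP7 with trend and robust settings. LARP7 read -0.41 once the poly-A level entered the fit and -0.09 once the block did too. NELFCD read -0.24 for the mean over its probe sets (limma, adjusted p = 0.0968), -0.47 with the covariate, and -0.05 with covariate and block.

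In the PAF1 complex CTR9 read 2.29, 2.05, 1.95, 2.55 and 2.05 in SSEA1+ replicates 1 to 5, and 3.48, 3.15, 2.92, 3.30 and 2.96 in SSEA1- replicates 1 to 5. It fell by 0.98 ± 0.13 (SE; limma, adjusted p = 0.00113), a call that held without any single array or pair and for the mean over its probe sets (-0.58). PAF1 itself read 0.38 and RTF1 -0.08 (adjusted p = 0.0899 and 0.647), PAF1 passing with the block at 0.0239. CTDSPL, a phosphatase of the family that acts on the polymerase II tail, rose by 0.51 (adjusted p = 0.0227), a call that ended without SSEA1+ replicate 1 or 2 or SSEA1- replicate 5. It read 0.77 with the poly-A level and the block. RPAP3, GPN1 and GPN3, which take part in polymerase assembly and nuclear import, read -0.32, -0.28 and -0.33 and passed with the block alone (adjusted p = 0.0241, 0.0352 and 0.0481). RPRD1A, which binds the polymerase II tail, and AFF1, of the super elongation complex, did so as well, at -0.50 and 0.40, RPRD1A lying above background on 7 of 10 arrays.

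Partners of the general factors and of Mediator gave no call. DR1, a repressor that binds TBP, read 0.02. CDK7, the TFIIH kinase, read 0.08, and CCNC, the cyclin of the Mediator kinase module, read -0.06. The SAGA and ATAC partners TADA2A, TADA3, SGF29 and ENY2 read -0.16, 0.07, -0.11 and -0.13.

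**Figure D5:**
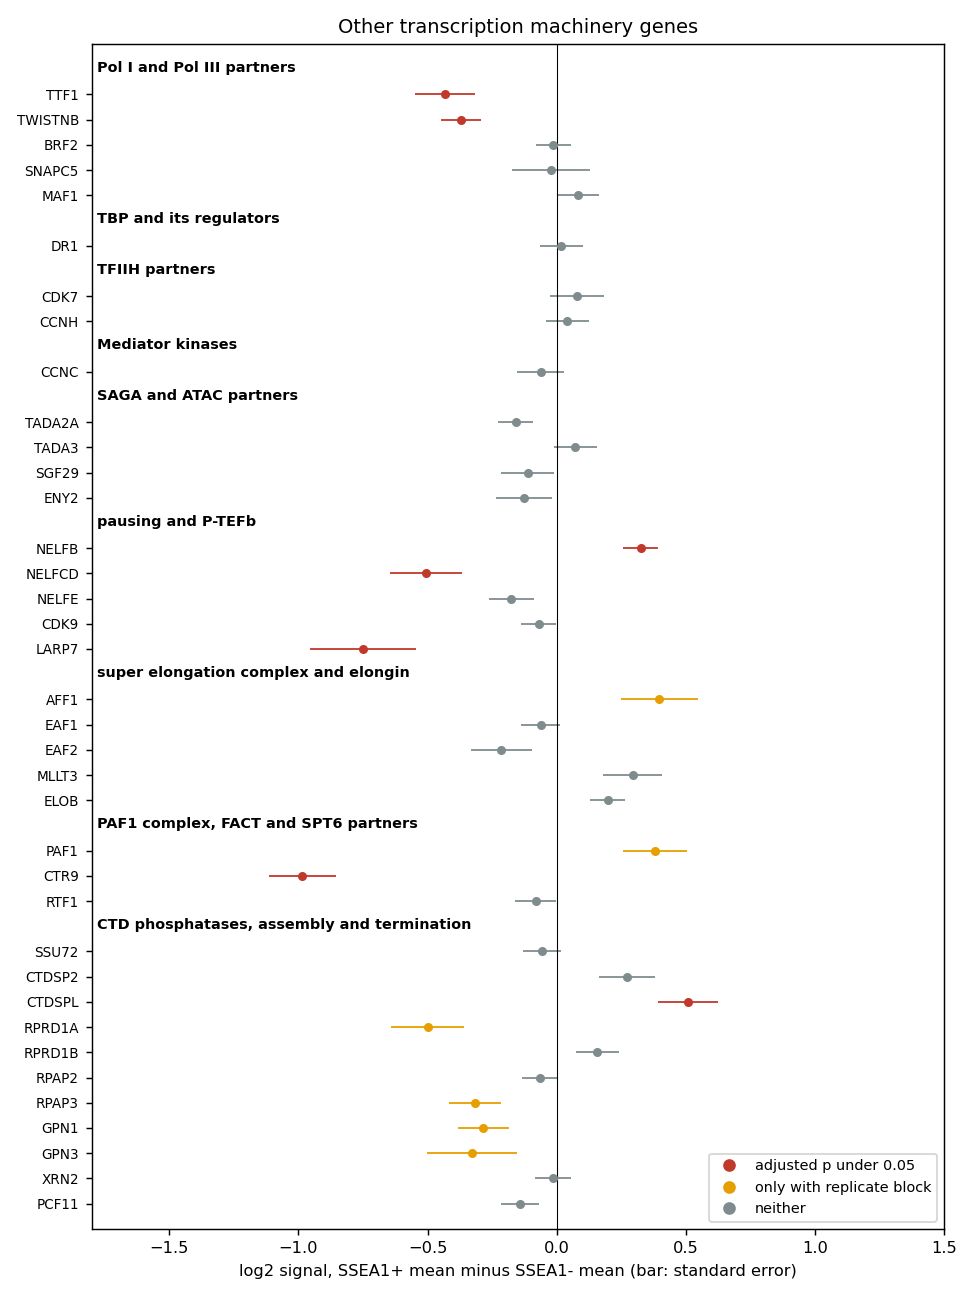
Difference in log2 signal (SSEA1+ mean minus SSEA1- mean, n = 5 each; bars, standard error) for 37 partner genes of the transcription machinery, by function, coloured as for the 63 genes. CTR9 at -0.98 and LARP7 at -0.75 lie lowest and CTDSPL at 0.51 highest.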

How the data were processed

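Gene expression was measured in 5 SSEA1+ and 5 SSEA1- fractions, grouped by their titles. The values deposited by the authors are log2 signals per probe set made with RMA, per the submitters' processing notes; which version was run is not given in the sources used here. Hybridisation controls rose by 0.937 to 1.05 per unit of log2 concentration, if the maker's stated concentrations hold. The values were analysed without another normalization.

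Gene names came from the platform annotation, and all 63 genes matched a RefSeq table of Sscrofa11.1 by identifier, used for names only. The test was lmFit and eBayes of limma 3.58.1 (R 4.3.3) on all 24123 probe sets, with Benjamini-Hochberg adjustment and a threshold of 0.05. The procedure was tested on simulated data. Genes with full values are those past the threshold, those past it only with the replicate block and, in some complexes, the one with the smallest p; a few others (TAF12, GTF3A, TCEA1) were chosen after their values were seen. The genes and lists were chosen with earlier results of these data known, CTR9 and POLR1E among them.

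Per the series text, 5 biological replicates each gave both fractions, and arrays sharing a number deviated together from the mean of their fraction (r of 0.214, 0.580, 0.356, 0.119 and 0.247), so the numbers were taken as pairs. The main fit leaves this pairing out, and the block, run as an alternative, uses it. The other alternatives were eBayes with trend and robust settings, repeated quantile normalization, cyclic loess, a filter on level, no control probe sets, averaging all probe sets of a gene, the poly-A level as a covariate, and leaving out each array or pair. Precision is limited by the number of arrays. Correlations between arrays were 0.991 to 0.996 within and 0.987 to 0.995 between fractions.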

Additional observations from a re-analysis of the deposited data

Results flagged for a closer look

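In 11 of 126 groups of 5 arrays, 2 for each of the 63 genes, 1 array lay further from the rest than Dixon's 95% critical value of 0.71 of the range allows; chance alone gives this in about 1 in 20. In SSEA1+ replicate 2, POLR2E read 5.90 against 6.14 to 6.17 on the other 4 arrays, GTF2F2 5.11 against 5.39 to 5.47, POLR2C 4.34 against 4.64 to 4.72 and TAF1B 1.57 against 1.28 to 1.30. In SSEA1+ replicate 3, GTF2H1 read 4.61 against 4.83 to 4.90, MED30 3.36 against 2.92 to 3.05 and POLR2I 5.39 against 5.11 to 5.15. In SSEA1+ replicate 4, GTF3A read 2.71 against 1.73 to 1.89. In the SSEA1- fraction, POLR3GL read 1.45 in replicate 1 against 1.79 to 1.86, TAF1B read 1.29 in replicate 2 against 1.49 to 1.57, and SUPT3H read 4.13 in replicate 5 against 3.78 to 3.85. POLR2E without SSEA1+ replicate 2 differed by 0.57 (limma, adjusted p = 0.00442).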

How the results depend on the processing

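Of the 63 genes, 3 higher and 2 lower were called; with the replicate block there were 5 higher and 5 lower, and adding the poly-A level to the fit, without or with the replicate block, gave 0 and 0 in limma (at an unadjusted p under 0.05, 3 higher and 5 lower alone, and 3 and 4 with the block). Leaving out arrays or pairs gave 2 to 3 higher and 0 to 5 lower. Of the 37 partner genes, 2 higher and 5 lower were called; the block gave 4 and 9, and the poly-A covariate, with or without the block, 0 and 0 (unadjusted, 3 and 6 alone, 4 and 4 with the block). Repeated quantile normalization, cyclic loess and the mean over probe sets each gave 2 lower partner genes, and leave-outs gave 0 to 2 higher and 1 to 7 lower. The cause of these changes was not tested. The 5 members and 7 partner genes called without the block kept their sign in all settings run. Of the 6 members called with the block alone, TAF1D (-0.55 to 0.03) and MED16 (0.28 to -0.04) changed sign with the poly-A level and block. Beyond TAF10, lost, and the 6 members gained, the block changed no member's call. POLR1E and POLR2E kept their calls in every setting but the 2 with the poly-A level. Of 24 medians, over all members and by complex, 9 moved beyond the replicate SD with that level, 17 with the block beside it and 1 (TFIID, -0.08 to 0.01) for the mean over probe sets. Among the 9 with that level, RNA polymerase II went from 0.01 to -0.18, III from -0.05 to 0.14 and SL1 from -0.34 to -0.11. TFIIIC went from -0.09 to -0.40 and MED27 with MED30 from -0.15 to -0.44. The subunits of all 3 enzymes (0.10 to -0.02) and the Mediator middle (0.04 to -0.09) changed sign but moved by less than the replicate SD. The SSEA1- and SSEA1+ poly-A levels do not overlap, so the fits with that level cannot fully tell it apart from the fraction. Signals near background limit what MED1, SUPT16H, TAF4B and POLR1A can show.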
